A study of Mus musculus with 8 samples.

Results

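Liver RNA of 4 *Agpat3* wild-type (WT) and 4 *Agpat3* knockout (KO) mice, all male, 10 weeks old and of the C57BL/6 background, was measured on one-color Agilent arrays, and the genes described here encode acyl-CoA thioesterases, the ACOT enzymes. The 10 genes *Acot1*, *Acot2*, *Acot3*, *Acot4*, *Acot7*, *Acot8*, *Acot9*, *Acot11*, *Acot12* and *Acot13* were taken by symbol, through the transcript accession that each probe lists, from 22911 genes with a symbol on the array. They were read by 13 of 56605 probes, and all 13 were well above background on all 8 arrays. AGPAT3 is an acyltransferase that places docosahexaenoic acid (DHA) into phospholipids, and the arrays were run to look for transcriptional changes that go with higher arachidonic acid in KO liver. The KO mice lacked the enzyme in every organ, so an effect of the liver's own loss cannot be told apart from one of other tissues. The feeding state of the mice at collection was not given in the sources used here.

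Acyl-CoA thioesterases cleave the thioester bond between an acyl group and coenzyme A (CoA), and thereby return a free fatty acid and free CoA. They work in the direction opposite to the acyl-CoA synthetases and act on the same acyl-CoA pool from which acyltransferases such as AGPAT3 draw. The type I enzymes (*Acot1* to *Acot6*) share an α/β-hydrolase fold and lie next to each other in the mouse genome, whereas the type II enzymes (*Acot7* to *Acot13*) carry a hotdog fold. In liver, several type I genes are known targets of PPARα, the nuclear receptor that is activated by fatty acids and in fasting.

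The arrays shared 1 slide and 1 scan, but WT livers filled row 1 of that slide and KO livers row 2, so row and genotype cannot be told apart. Between 29885 and 31886 probes per array were well above background, and 29067 probes were tested, among them those of 14065 named genes. Signals are given as log2 after division by the 75th percentile of each array, so that a probe at that percentile has the value 0. Where a gene had more than 1 probe, the brightest stood for it. A call needed a fold change over 1.5 together with an adjusted p under 0.2 (limma, Benjamini-Hochberg over all tested probes), which gave 273 higher and 211 lower probes in *Agpat3* KO liver. With normexp background correction on the median spot signal there were 180 higher and 65 lower, and with scaling by the array median 255 higher and 271 lower, so the balance of both directions moved with the processing. The brighter *Agpat3* probe had a log2 fold change of -6.12 (adjusted p = 4.46e-07, limma) and was still above background on all 4 KO arrays. The labelled tissue was checked with 8 hepatocyte markers, all of which were tested and none called, and their summed signal was 5845 to 6378 times the 75th percentile in WT and 5740 to 6169 times in KO mice. Of 6 adipocyte markers 5, *Adipoq* and *Plin1* among them, were below the filter on dim probes and *Lep* passed it. Of 4 muscle markers 3, *Ckm* and *Acta1* among them, were below it and *Myh6* passed. *Lep* and *Myh6* were not called. Of 8 pancreatic acinar markers 5 passed the filter and 0 were called, with log2 fold changes above 0 for 3 and below 0 for 2. Their summed signal was 34.0 to 49.2 times the 75th percentile in WT and 20.8 to 35.3 times in KO mice. Most of that sum was the signal of *Cela1*, which had a log2 fold change of -0.54 (adjusted p = 0.292, limma). For 1 of the 5, again *Cela1*, the groups did not overlap, with KO lower, against 5.89% of all genes. Of the markers of 8 other cell types, the call was met by *Marco*, a scavenger receptor of Kupffer cells, at -1.22 (adjusted p = 0.0983, limma), and by none of the other tested ones. The other 6 Kupffer markers had log2 fold changes of -0.17 (*Adgre1*), -0.09 (*Clec4f*), -0.07 (*Cd5l*), -0.07 (*C1qa*), 0.04 (*Vsig4*) and 0.12 (*Timd4*). In a bulk sample, fewer cells of a type and less RNA per cell cannot be told apart.

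Of the 10 thioesterase genes, 4 (*Acot1*, *Acot2*, *Acot3*, *Acot4*) lie on chromosome 12, 2 on chromosome 4 (*Acot7*, *Acot11*), 2 on chromosome 13 (*Acot12*, *Acot13*), and 1 each on chromosome 2 (*Acot8*) and chromosome X (*Acot9*). The chromosome 12 genes follow one another in the order *Acot2*, *Acot1*, *Acot4*, *Acot3*, *Acot5*, *Acot6*. Since the results below turn on these neighbors, the RefSeq promoter windows of the 4 measured members are shown, each with 250 bases before and 50 bases after the annotated start. The windows are from GRCm38.p6, plus strand, at chr12:83987611-83987910 (*Acot2*), chr12:84009252-84009551 (*Acot1*), chr12:84038129-84038428 (*Acot4*) and chr12:84051894-84052193 (*Acot3*, the first of its 2 overlapping windows). Capitals mark AGGTCA or its reverse complement TGACCT, the core letters of many nuclear receptor sites, and CCAAT or its reverse complement ATTGG, a common promoter element.
Acot2: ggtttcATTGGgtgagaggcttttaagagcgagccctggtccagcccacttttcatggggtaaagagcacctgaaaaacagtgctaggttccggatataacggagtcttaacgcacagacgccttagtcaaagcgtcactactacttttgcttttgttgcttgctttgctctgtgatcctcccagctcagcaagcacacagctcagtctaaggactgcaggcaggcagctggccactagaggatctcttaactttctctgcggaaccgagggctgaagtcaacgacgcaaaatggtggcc
Acot1: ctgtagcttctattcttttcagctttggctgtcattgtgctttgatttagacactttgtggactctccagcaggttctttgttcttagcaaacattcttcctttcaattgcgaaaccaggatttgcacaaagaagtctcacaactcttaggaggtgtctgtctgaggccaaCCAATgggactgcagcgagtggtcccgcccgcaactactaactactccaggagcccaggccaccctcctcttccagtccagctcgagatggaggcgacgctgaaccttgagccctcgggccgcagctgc
Acot4: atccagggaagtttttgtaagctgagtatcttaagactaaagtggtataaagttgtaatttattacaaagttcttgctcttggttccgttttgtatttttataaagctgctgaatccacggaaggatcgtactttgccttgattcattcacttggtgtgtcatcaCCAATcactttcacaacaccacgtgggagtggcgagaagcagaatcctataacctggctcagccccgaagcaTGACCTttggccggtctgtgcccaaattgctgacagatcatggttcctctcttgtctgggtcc
Acot3: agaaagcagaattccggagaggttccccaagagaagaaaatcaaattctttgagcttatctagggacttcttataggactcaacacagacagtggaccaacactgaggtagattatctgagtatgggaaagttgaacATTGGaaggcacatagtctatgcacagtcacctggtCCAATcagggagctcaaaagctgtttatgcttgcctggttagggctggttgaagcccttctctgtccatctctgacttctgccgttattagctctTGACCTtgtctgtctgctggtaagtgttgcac

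A window was found for 9 of the 10 genes, and *Acot13* had none in the table. Both strands were searched, and the motifs do not overlap except that the direct repeat holds AGGTCA. The direct repeat of AGGTCA with 1 base between the copies, the form that PPARα binds, was in 0 of the 9 genes' windows and in 0.0396% of 32851 windows of the same length. A single AGGTCA was in the windows of 3 of the 9 genes and in 16.3% of all windows. The 3 genes were *Acot3*, where it starts 19 bases after the annotated start, *Acot4*, where it starts 13 bases before it, and *Acot12*. CCAAT was in the windows of 7 of the 9 genes, against 37.4% of all windows, and TCACCCCAC, an SREBP site, was in 0 of the 9, against 0.551%. A gene counted if any of its windows held the motif, whereas the shares are of single windows. *Acot3* and *Acot11* have more than 1 window, and CCAAT was in only 1 of those of *Acot11*. These are matches of letters in short windows, and no binding was measured here.

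In *Agpat3* KO liver, *Acot3* had the largest difference of the family, with a mean 2.44 times that of WT liver, followed by *Acot4*, *Acot11* and *Acot2* at 1.38, 1.36 and 1.35 times. None of the 10 genes met the call: 0 were called higher, against 1.01% of all genes tested, and 0 lower, against 0.754%. *Acot3* missed it narrowly, with an adjusted p of 0.201 (limma). At an unadjusted p under 0.05 by limma, *Acot2*, *Acot3* and *Acot4* were higher (3 of 10, against 5.70% of all genes) and 0 were lower (against 8.25%), and the unpaired *t* test with Benjamini-Hochberg adjustment also gave 0 calls. The log2 fold change was above 0 for 7 of the 10 genes, against 42.0% of all genes, and below 0 for 3. Its median over the 10 genes was 0.19, or 0.14 without *Acot3*, beside a median of -0.03 over all genes.

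**Figure D1:**
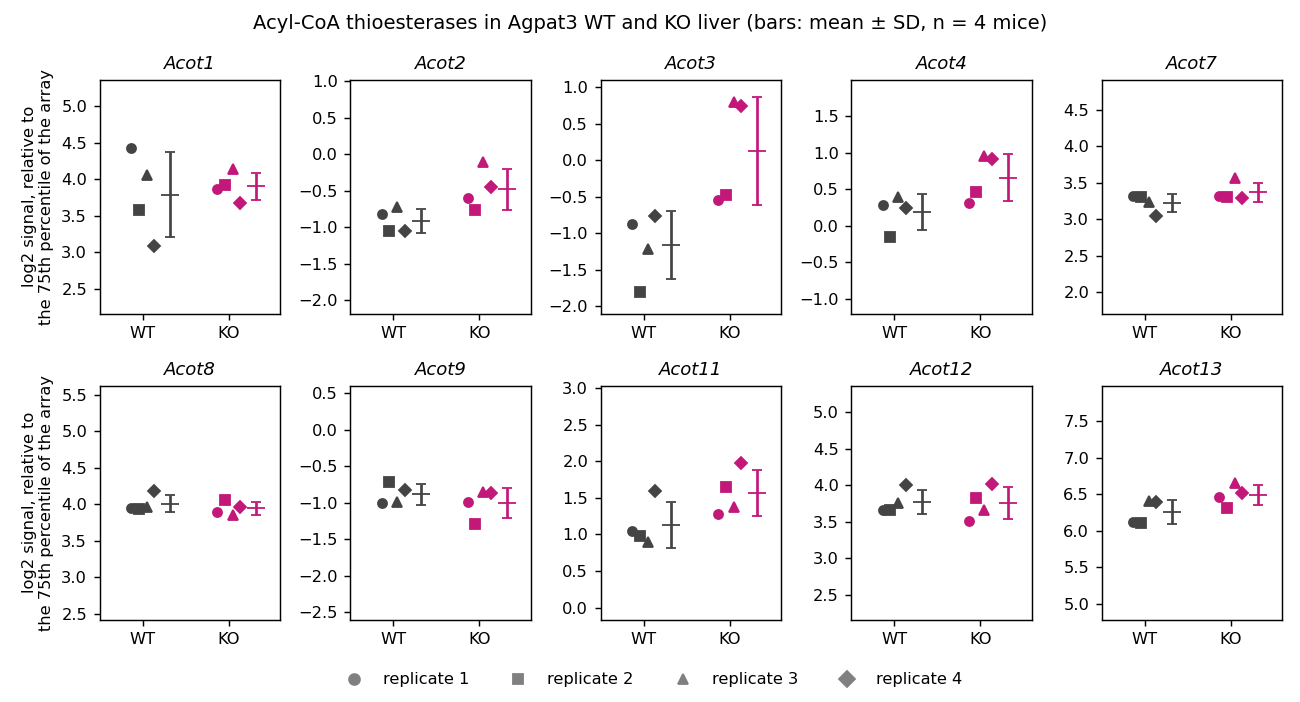
Log2 signal over the array's 75th percentile (y axis) for the brightest probe of each of the 10 thioesterase genes in WT and *Agpat3* KO mice; each point is 1 mouse, and bars are mean ± SD of 4 mice, with the same span on every y axis. The *Acot3* panel is the only one without overlap of the genotypes, and the *Acot1* panel shows WT mice from 3.09 to 4.43 around 4 closely placed KO mice.

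*Acot3* encodes a peroxisomal thioesterase for long-chain acyl-CoAs. Its log2 signal was -0.87, -1.80, -1.21 and -0.76 in WT livers and -0.54, -0.48, 0.80 and 0.74 in KO livers. Every KO mouse was above every WT mouse, but the KO mice fell into 2 lower values just above the highest WT mouse and 2 values more than 1 log2 unit higher. The mean was -1.16 ± 0.47 (SD, n = 4) in WT and 0.13 ± 0.74 (SD, n = 4) in KO mice. The log2 fold change was 1.29 (standard error, SE, 0.38), a 2.44-fold difference with a 95% interval of 1.35 to 4.44 from limma. An exact permutation test over the 70 assignments of mice gave p = 0.0286 (two-sided), the smallest that 4 against 4 mice allow. Groups without overlap and with KO higher were found for 3.84% of all genes and for 1 of the 10 thioesterase genes, and with KO lower for 5.89% and 0 of the 10.

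The spread of *Acot3* between mice of 1 genotype was large, with a 2.06-fold range in WT and a 2.54-fold range in KO liver. Its SD was higher than that of 94.2% of tested genes in WT mice and of 98.2% in KO mice, where the median SD of all genes was 0.15 and 0.14 log2 units. Under 5 settings *Acot3* passed the threshold. The adjusted p was 0.189 with normexp, 0.195 with quantile normalization, 0.183 with a trended and robust limma fit, 0.153 with the replicate number as a block, and 0.196 without WT replicate 4. Over all settings it ranged from 0.153 to 0.434, and the log2 fold change stayed between 0.95 and 1.51.

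*Acot4* encodes a peroxisomal enzyme known for the hydrolysis of succinyl-CoA and other dicarboxylyl-CoAs. The brighter of its 2 probes gave 0.28, -0.16, 0.40 and 0.24 in WT livers and 0.31, 0.46, 0.95 and 0.91 in KO livers. KO replicate 1 lay within the WT range, and the other KO mice lay above it. The log2 fold change was 0.47 (SE 0.18, adjusted p = 0.311, limma), and the dimmer probe gave 0.48 (SE 0.15, adjusted p = 0.236).

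*Acot2* encodes the mitochondrial matrix enzyme that acts on long-chain acyl-CoAs. Its signal was -0.82, -1.06, -0.73 and -1.05 in WT livers and -0.60, -0.76, -0.11 and -0.45 in KO livers. The groups overlapped by 1 KO mouse, replicate 2, which lay just below the highest WT mouse. The difference was 1.35-fold (95% interval 1.07 to 1.71, adjusted p = 0.265, limma).

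*Acot1*, the cytosolic counterpart of *Acot2* and a known PPARα target, had signals of 4.43, 3.58, 4.05 and 3.09 in WT livers and 3.87, 3.92, 4.14 and 3.68 in KO livers. All KO mice lay within the WT range, which spanned 2.54-fold against 1.37-fold in KO mice. Its SD in WT mice, 0.58, was higher than that of 97.0% of tested genes, whereas the KO value of 0.19 was higher than that of 65.7%. The means of 3.79 ± 0.58 (SD, n = 4) and 3.90 ± 0.19 (SD, n = 4) differed by 0.11 log2 units (SE 0.27, adjusted p = 0.895, limma). The 95% interval of the fold, 0.71 to 1.65, still held a change of 1.5-fold. Without WT replicate 4, the lowest mouse, the difference was -0.12.

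**Figure D2:**
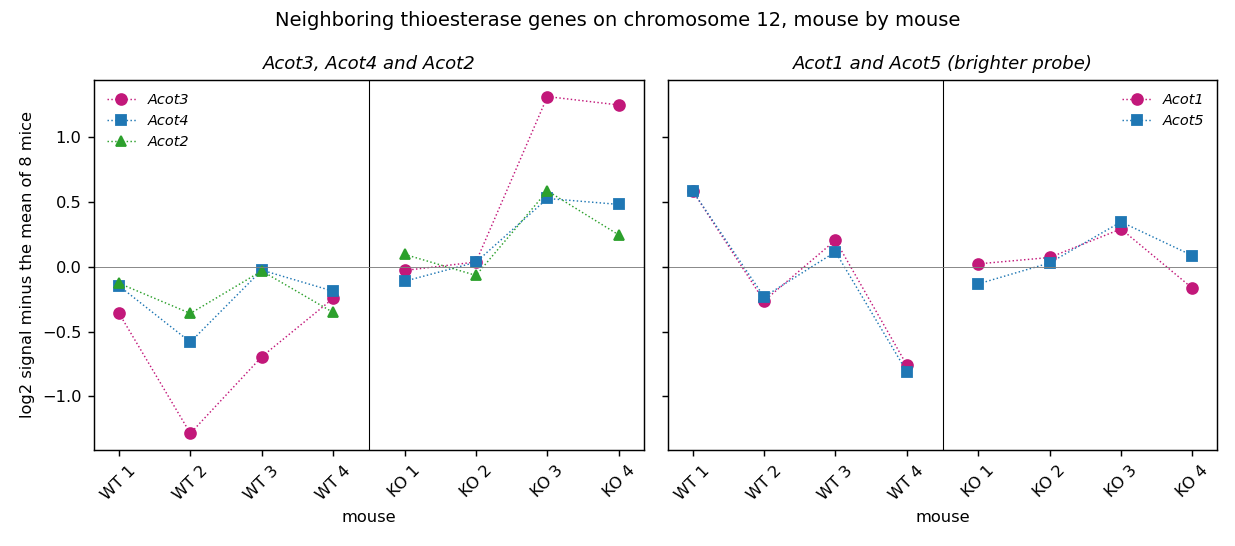
Log2 signal of 5 neighboring thioesterase genes of chromosome 12 in each mouse (x axis), as the difference from the gene's mean over the 8 mice (y axis); dotted lines only help to follow a gene, since mice of 1 genotype have no order. *Acot3*, *Acot4* and *Acot2* (left) were highest in KO replicates 3 and 4, and *Acot1* and the brighter *Acot5* probe (right) lay close together in the WT mice and took opposite signs in KO replicates 1 and 4.

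The plot of the chromosome 12 neighbors by mouse shows 2 patterns. *Acot3*, *Acot4* and *Acot2* had their highest values in KO replicates 3 and 4 and their lowest in WT replicate 2. *Acot5*, the next gene of the row and a further peroxisomal enzyme, was closer to *Acot1* in profile, above all in the WT mice. By the root mean square difference of centered log2 values over the 8 arrays, the brighter *Acot5* probe was the nearest of 14058 genes to *Acot1* (0.11 log2 units), a comparison made after the *Acot1* values were seen. The dimmer *Acot5* probe did not follow, with values of -3.49, -3.57, -3.02 and -3.10 in WT mice and -3.30, -3.32, -3.39 and -3.01 in KO mice. The type I genes are similar in sequence, and whether a probe of one also read RNA of another was not tested. *Acot6* was below the filter on dim probes.

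None of the 3 tested genes beside the row was called. *Riox1*, next to *Acot2*, had a log2 fold change of -0.08 (adjusted p = 0.861, limma), *Numb*, farther on that side, 0.00 (adjusted p = 0.999), and *Mideas*, on the other side, -0.14 (adjusted p = 0.549).

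For *Acot3*, the 5 genes with the nearest profile over the 8 mice were *4430402I18Rik*, *Oxt*, *Plcxd1*, *Rpia* and *Rps6ka2*, with root mean square differences of 0.38 to 0.43 log2 units, beside 0.84 for the spread of *Acot3* itself. *4430402I18Rik* had values of -0.88, -1.39, -1.46 and -0.70 in WT and -0.29, -0.18, 0.44 and -0.06 in KO mice. *Rpia*, which encodes ribose 5-phosphate isomerase of the pentose phosphate pathway, had a log2 fold change of 0.88 (SE 0.13, adjusted p = 0.0368, limma). Among the other thioesterases *Acot4* came nearest (rank 25), followed by *Acot2* (rank 86) and *Acot11* (rank 156). The nearest genes were chosen on values that include the genotype difference, so their own differences add no support.

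Among the type II genes, *Acot11* and *Acot13* encode the START-domain protein THEM1 and the small protein THEM2, which hydrolyze long-chain acyl-CoAs. The brighter *Acot11* probe gave 1.05, 0.98, 0.89 and 1.60 in WT livers and 1.28, 1.66, 1.37 and 1.97 in KO livers. WT replicate 4 lay above 2 of the KO mice, and the other 3 WT mice lay below all of them. The log2 fold change was 0.44 (SE 0.20, adjusted p = 0.389, limma), and 0.59 (adjusted p = 0.184) without WT replicate 4, which met the call. The dimmer *Acot11* probe differed by 0.20 (SE 0.24, adjusted p = 0.775), with KO replicate 1 the lowest of all mice at -0.57.

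*Acot13* gave 6.12, 6.11, 6.41 and 6.39 in WT livers and 6.47, 6.32, 6.66 and 6.51 in KO livers. Only KO replicate 2 lay within the WT range. The difference of 1.17-fold (95% interval 0.99 to 1.39, adjusted p = 0.404, limma) was within the limits of a 1.5-fold change. *Pctp*, which encodes the phosphatidylcholine transfer protein that binds THEM2, differed by 0.38 (SE 0.15, adjusted p = 0.324).

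*Acot7*, best known as the cytosolic thioesterase of neurons, differed by 0.14 (SE 0.09, adjusted p = 0.564, limma) with its brighter probe. The dimmer probe gave 0.99, 1.03, 1.13 and 0.96 in WT livers and 1.13, 1.21, 1.51 and 1.15 in KO livers, groups that met at 1.13 without overlap, with a log2 fold change of 0.22 (adjusted p = 0.375). Both probes were highest in KO replicate 3.

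The other 3 genes had log2 fold changes below 0 and groups that overlapped widely. *Acot12*, whose product hydrolyzes acetyl-CoA in the cytosol, ranged from 3.66 to 4.00 in WT and from 3.50 to 4.01 in KO mice, a fold of 0.99 (95% interval 0.81 to 1.21). *Acot8*, a peroxisomal enzyme of broad substrate range, ranged from 3.93 to 4.18 in WT and from 3.86 to 4.06 in KO mice, a fold of 0.96 (95% interval 0.84 to 1.09). *Acot9*, a mitochondrial enzyme, was highest in WT replicate 2 at -0.71 and lowest in KO replicate 2 at -1.29, a fold of 0.92 (95% interval 0.76 to 1.11). Their adjusted p-values from limma were 0.971, 0.807 and 0.729. For 5 of the 10 genes (*Acot7*, *Acot8*, *Acot9*, *Acot12*, *Acot13*) the whole interval lay inside a 1.5-fold change in either direction, while those of *Acot1*, *Acot2*, *Acot3*, *Acot4* and *Acot11* reached past it.

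**Figure D3:**
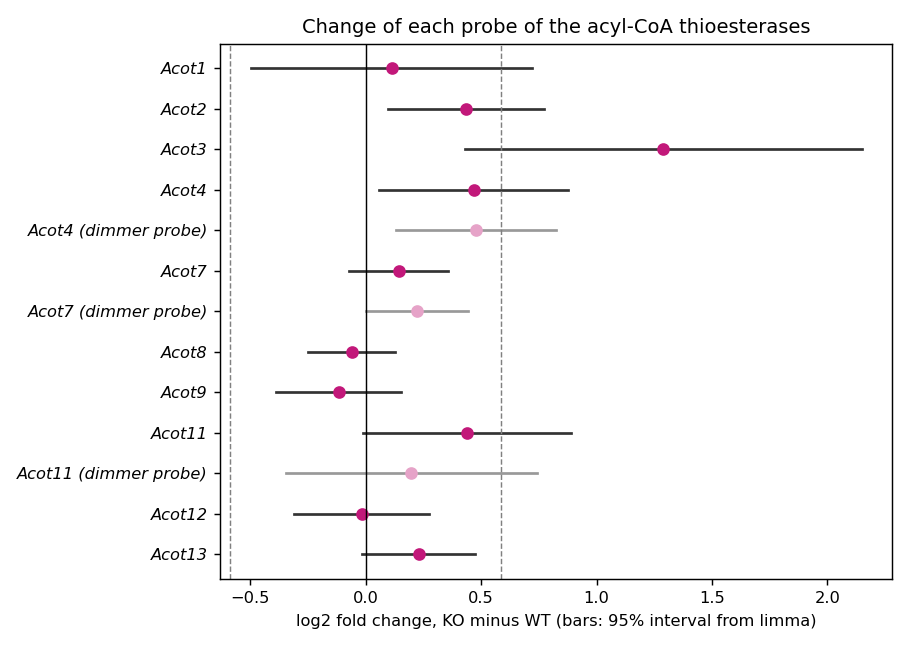
Log2 fold change of KO over WT liver (x axis) for each of the 13 thioesterase probes (y axis); points are estimates, bars 95% intervals from limma, pale rows the dimmer probes of a gene, and dashed lines mark a fold change of 1.5. The intervals of *Acot2*, *Acot3* and both *Acot4* probes lie above 0, and that of *Acot1* spans from -0.50 to 0.72.

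By compartment, the plot of changes by probe shows no common direction. The peroxisomal genes included *Acot3* and *Acot4* with the largest values and *Acot8* with -0.06, and the mitochondrial genes included *Acot2* with 0.43 and *Acot9* with -0.12. Among the cytosolic genes *Acot1*, *Acot7* and *Acot12* the values ran from -0.02 to 0.14. *Acot11* and *Acot13*, with 0.44 and 0.23, were not placed in a compartment here.

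Genes with related roles were read from lists, and over all genes tested 1.01% were called higher and 0.754% lower. Of 13 other thioesterases, 9 were tested and 0 called (median log2 fold change 0.14). *Baat*, the bile acid conjugating enzyme related to the type I thioesterases, was 3.51, 3.52, 3.43 and 3.58 in WT and 3.72, 3.71, 3.65 and 3.73 in KO mice (brighter probe). The groups did not overlap, but the log2 difference was only 0.19 (SE 0.06, adjusted p = 0.252, limma). Its dimmer probe gave 0.14 (SE 0.16, adjusted p = 0.774), with groups that overlapped. Without overlap and with KO higher were 2 of the 9 tested genes, *Baat* and *Lypla1*, against 3.84% of all genes. With KO lower there were 0, against 5.89%. The brighter *Acot5* probe differed by 0.17, *Acot10* by 0.14, *Lypla1*, a protein depalmitoylase, by 0.15 with its brighter probe, and *Ppt1*, a lysosomal one, by -0.13. The dimmer *Lypla1* probe differed by -0.015 (adjusted p = 0.949, limma). Of the 13 genes of CoA synthesis and degradation, 0 were called and the median was 0.08. The largest values were those of the pantetheinases *Vnn3*, 0.54 (SE 0.14, adjusted p = 0.148), which passed the p threshold but not the fold threshold, and *Vnn1*, 0.41 (SE 0.18, adjusted p = 0.370).

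The genes that form or bind acyl-CoAs, the substrates of the thioesterases, held 2 calls among 20 tested, both higher, against 1.01% of all genes (median 0.04). *Acss2*, the cytosolic acetyl-CoA synthetase and a known SREBP target, was 4.12, 4.73, 4.64 and 4.29 in WT and 5.41, 5.22, 6.10 and 5.14 in KO mice. All KO mice lay above all WT mice, and the log2 fold change was 1.02 (SE 0.23, adjusted p = 0.119, limma). *Acss3*, a mitochondrial short-chain synthetase, rose by 1.00 (SE 0.18, adjusted p = 0.0721). Among the long-chain synthetases, *Acsl5* differed by 0.56 (adjusted p = 0.0492), just under the 1.5-fold threshold, and the brighter *Acsl3* probe by 0.97 (adjusted p = 0.231), both with groups that did not overlap. The dimmer *Acsl3* probe met the call, at 0.93 (SE 0.23, adjusted p = 0.141). The lowest value was that of *Acsm2*, a medium-chain synthetase, at -0.59 (adjusted p = 0.237).

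Of the PPARα list, 39 of 40 genes were tested and the median was 0.02. Among the 39, 0 were called, against 1.01% of all genes called higher and 0.754% lower. At an unadjusted p under 0.05 by limma, 5 of the 39 were higher, against 5.70% of all genes, and 1 was lower, against 8.25%. *Ppara* itself differed by -0.09 (SE 0.14, adjusted p = 0.845, limma). *Cyp4a14*, a fatty acid ω-hydroxylase, was -1.19, -1.43, -1.28 and -2.88 in WT and -0.82, -0.17, 0.81 and -1.95 in KO mice, with KO replicate 4 inside the WT range and the other KO mice above it, and a log2 difference of 1.17 (SE 0.60, adjusted p = 0.457). *Cd36*, a fatty acid transporter, was the gene of the list with the lowest adjusted p, 0.220, at 1.01, and its highest mouse was KO replicate 3 at 1.98. *Pdk4* and *Fgf21* both differed by 0.73 (adjusted p = 0.259 and 0.700), *Cyp4a10* by 0.69 (adjusted p = 0.485), *Cpt1a* by -0.14 and *Plin4* by -0.50. *Ehhadh*, the bifunctional enzyme of peroxisomal fatty acid oxidation, differed by 0.34 (adjusted p = 0.319).

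Of 18 genes of peroxisomal fatty acid oxidation, 1 was called higher, against 1.01% of all genes. The called gene, *Abcd2*, encodes a peroxisomal fatty acyl-CoA transporter and passed the filter on dim probes only through its KO arrays. It was well above background on 2 of the 4 WT and all 4 KO arrays, at -4.98, -3.91, -3.96 and -3.20 in WT and -2.57, -2.63, -1.42 and -1.92 in KO mice (log2 fold change 1.88, SE 0.40, adjusted p = 0.106, limma). *Crot*, which moves medium-chain acyl groups from CoA to carnitine in peroxisomes, was lower in all KO mice, at -0.33 (SE 0.08, adjusted p = 0.136), which is under the fold threshold. Of 6 partners of the thioesterases 0 were called. *Hnf4a*, a regulator of hepatocyte genes, stood at -0.33 (adjusted p = 0.276, limma) with its brighter probe and at -0.095 (SE 0.16, adjusted p = 0.843) with its dimmer probe. *Pnpla2*, the triglyceride lipase, stood at -0.43 (adjusted p = 0.243).

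Since type I thioesterases respond to fasting in liver, genes of the fasting and feeding response were set beside them. Of 13 fasting genes 0 were called, with a median of -0.01, and *Igfbp1* differed by 0.76 (adjusted p = 0.643, limma), *Angptl4* by -0.12 and *Txnip* by -0.24. Of 12 feeding genes 9 were called, all higher, against 1.01% of all genes, with a median of 0.92. The 9 were *Acacb*, *Acly*, *Fasn*, *Me1*, *Pklr*, *Pnpla3*, *Scd1*, *Srebf1* and *Thrsp*. *Srebf1*, which encodes SREBP1, stood at 0.77 (adjusted p = 0.168), *Fasn*, the fatty acid synthase, at 1.69 (adjusted p = 0.00206) and *Pnpla3* at 3.59 (adjusted p = 0.0026). *Pnpla3* was well above background on 1 of 4 WT arrays and passed the filter on dim probes only through its KO arrays. Many feeding genes are also SREBP1 targets, and the part of feeding state in the thioesterase values was not tested.

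**Figure D4:**
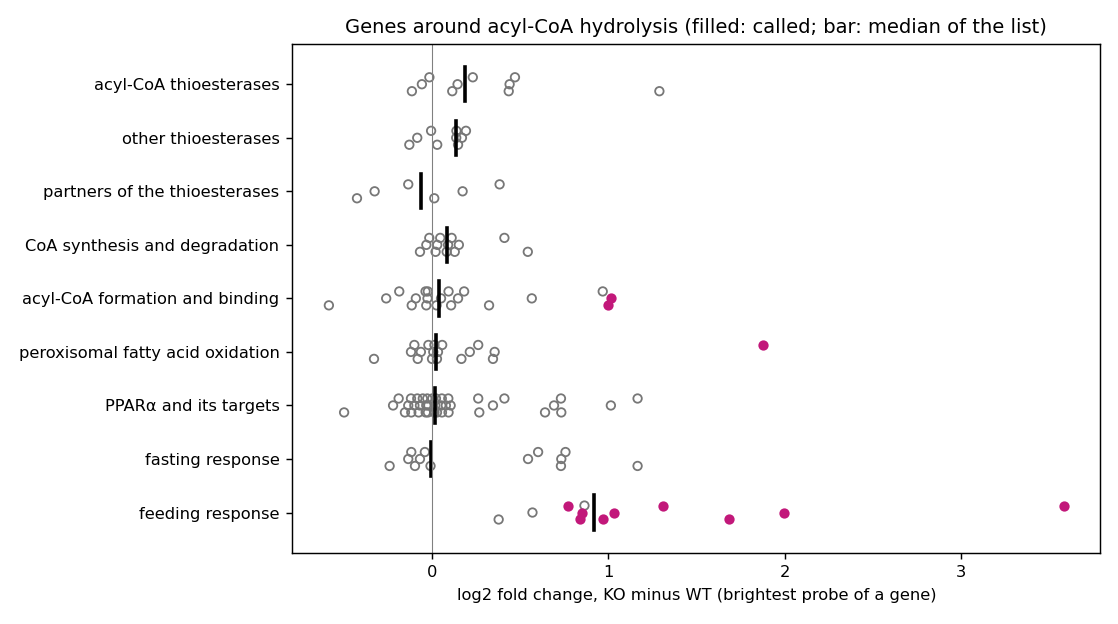
Log2 fold change of KO over WT liver (x axis) for the brightest probe of each tested gene, by list (y axis); filled points were called, open points were not, and bars are list medians. The thioesterases have 0 filled points and a median of 0.19, the PPARα list 0 filled points and a median of 0.02, and the feeding list 9 filled points and a median of 0.92.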

How the data were processed

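RNA from the livers of 4 *Agpat3* WT and 4 *Agpat3* KO mice was hybridized to 8 one-color arrays, and samples were grouped by the genotype in their labels. The authors deposited, for each array, the spot intensity from Feature Extraction 10.7.1.1 (linear scale, background-corrected). They also deposited a table of log2 values, which equals the log2 intensity minus the 75th percentile of the array within 0.008. Arrays have no sequencing depth, and the number of arrays limits the precision.

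Control and outlier spots were left out, spots of a probe averaged, and a probe kept if every array of WT, or every array of KO liver, had it well above background. A probe counted as well above background when at least 0.5 of its remaining spots were flagged so. The genotype difference was fitted by limma 3.58.1 (lmFit, then eBayes; R 4.3.3), two-sided, with Benjamini-Hochberg adjustment over 29067 probes. The thresholds follow a figure legend of the study, where it is not stated if p was adjusted. An exact permutation test over the 70 assignments of mice was run on single probes, and the fit was tested on simulated data.

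Symbols came from a RefSeq table of GRCm38.p6 through transcript accessions (32994 of 56605 probes), while the array grid names another build, so gene coordinates are not given. The members and gene lists were chosen with earlier results of these data known, and p-values adjusted over a list alone are not given. Named genes were all members, *Agpat3*, and of each list the called genes and up to 3 of the largest values in each direction. A fixed set of regulators and targets was named whatever their values, and so were the 5 genes nearest in profile to the member with the largest difference. Some genes under this rule are not reported here. *Acsl5*, *Acot10*, the second *Acsl3*, *Lypla1*, *Baat* and *Hnf4a* probes and the named cell type markers were named outside it, after their values were seen. So were the neighbors of the tandem genes and the genes nearest to *Acot1*.

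Alternatives were the deposited log2 values, normexp (offset 50, on the median spot signal), scaling by the median or by quantiles, no filter and a stricter filter, outlier spots kept, a trended and robust eBayes, the replicate number as a block, each array left out, averaging a gene's probes, other thresholds and an unpaired *t* test. A filter that counts outlier spots was added after seeing the data.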

Additional observations from a re-analysis of the deposited data

Results flagged for a closer look

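In 12 of 128 groups of 4 mice examined for the genes given with values, 1 mouse lay apart from the other 3, and chance alone flags about 1 in 20 such groups. The dimmer *Lypla1* and *Baat* probes were not among these groups. Among the thioesterases, *Acot7* (brighter probe) was 3.57 in KO replicate 3 and 3.29 to 3.32 in the other KO mice, and *Acot8* was 4.18 in WT replicate 4 and 3.93 to 3.96 in the other WT mice. WT replicate 4 also stood apart for *Pdk4*, at -0.70 against -1.43 to -1.35, and for *Cyp4a14*, at -2.88 against -1.43 to -1.19. Among the Kupffer markers, KO replicate 1 was lowest for *Cd5l* (4.70 against 5.46 to 5.48) and *Timd4* (-1.26 against -0.54 to -0.41), and WT replicate 1 for *Adgre1* (1.93 against 2.25 to 2.27). Among the genes nearest in profile to *Acot3*, *Oxt* stood apart in WT replicate 1 (-2.53 against -3.18 to -3.14) and *Plcxd1* in WT replicate 2 (-2.93 against -2.30 to -2.19). The remaining cases were *Cpt1a* in KO replicate 4 (5.74 against 5.44 to 5.48), *Vnn1* in WT replicate 1 (0.80 against 1.22 to 1.26) and the dimmer *Agpat3* probe in WT replicate 3 (3.68 against 3.56 to 3.58).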

How the results depend on the processing

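Of 200 values of single members under other settings, 189 had the main direction and the main side of the threshold, 6 passed the threshold and 5 changed sign. The sign changed for *Acot1* without WT replicate 4 (-0.12) and for *Acot12*, which was near 0 throughout, under quantile normalization (0.0082) and without WT replicate 4 (0.06), KO replicate 1 (0.066) or KO replicate 3 (0.01), with a range of -0.10 to 0.066 over the arrays left out. The count of members called higher was 1 (*Acot3*) with normexp, quantile normalization and the trended and robust fit, and also with an unadjusted limma p or *t* test p under 0.2. It was 0 to 2 when single arrays were left out, with 2 (*Acot3* and *Acot11*) without WT replicate 4, and the count of members called lower was 0 in each setting run. The cause of these changes was not tested.

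Replicate numbers were not taken as pairs, since the labels do not tie mice of both genotypes together. In both genotypes the replicate number was also the column of the slide. The correlations of the deviations of mice with 1 number were 0.33, -0.11, 0.10 and 0.32. WT replicates 1, 3 and 4 correlated best with the KO mouse of the same number, and WT replicate 2 with KO replicate 3. With the replicate number as a block, 1 member was called higher (*Acot3*), and over all probes 327 were called higher and 265 lower. Of the 273 higher and 211 lower calls of the main fit, 450 were kept. *Acot2* and *Acot11* passed the p threshold under the block (adjusted p = 0.167 and 0.153, limma) but not the fold threshold.

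Over all probes, the 273 higher and 211 lower calls became 180 and 65 with normexp, 122 and 131 without the filter, and 165 and 104 by the unpaired *t* test after adjustment. They were 503 and 426 by the *t* test with p under 0.2, 82 and 35 with adjusted p under 0.05, 557 and 645 without a minimum fold, 100 and 60 with a fold over 2, and 534 and 451 with unadjusted p under 0.2. The stricter filter left 125 lower calls. With 1 array left out, the counts ranged from 152 to 334 higher and from 98 to 276 lower. The median of all genes moved by less than 0.1 log2 units under each scaling. Signal over background limits the dimmest genes named, such as *Abcd2* and *Pnpla3*, and for the thioesterases the number of arrays and the spread between mice limit the precision.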
